A study of Mus musculus with 10 samples.

Results

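The heat shock protein and DnaJ genes are the chaperones that help other proteins fold, keep unfolded ones from clumping and pull clumps apart. They were taken here as every gene in the count table whose symbol starts with Hspa, Hspb, Hspd, Hspe, Hsph, Hsp90 or Dnaj, which gave 74 of 22000 genes. Their mRNA was measured by RNA-seq in the prefrontal cortex (PFC) of 5 *Zbtb16* KO and 5 wild-type (WT) mice at 7 weeks of age, all labelled male and with no treatment named. KO mouse 3 had almost no counts of Y-linked genes, against its label. The KO mice were homozygous for lu (luxoid), a nonsense point mutation of *Zbtb16* carried in every tissue on the B6.C3-Zbtb16lu/J background, so the gene was mutated and not deleted. Nothing in the labels says that litters or preparations were shared between mice. Libraries held 30220122 to 51231439 counts, and values are given as CPM, a gene's counts scaled to the same total in every library. Of the 74 members, 67 passed the filter on low counts and were tested.

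Hsp70 proteins bind exposed hydrophobic stretches of a client protein and let go of them in a cycle driven by ATP. DnaJ proteins, also called Hsp40, hand clients to Hsp70 and speed up its ATP use, while Hsp110 proteins swap the spent ADP for ATP. Hsp90 works later, on nearly folded clients such as kinases and steroid receptors, and small Hsps hold unfolded proteins without using ATP. Heat, oxidised or misfolded protein switches on some of these genes through the transcription factor *Hsf1*, and misfolded protein in the endoplasmic reticulum (ER) switches on others through the unfolded protein response. In neurons, Hsp70 with DnaJ partners also strips clathrin from vesicles at the synapse.

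Among the 67 tested members, *Hspa2* alone passed the test between the genotypes and was higher in *Zbtb16* KO mice. No member was called lower. *Hspa4l*, an Hsp110, had lower CPM in every KO mouse than in any WT mouse and did not pass the correction over all genes. The abundant chaperones *Hspa8*, *Hsp90ab1*, *Hsp90aa1*, *Hspa5* and *Dnajc5* did not pass, and the fold changes of *Hspa8*, *Hsp90ab1* and *Dnajc5* had narrow intervals around 0. The heat-inducible members *Hspa1a*, *Hspa1b* and *Hspb1* were close in their genotype means and far apart between mice, with KO mouse 5 the lowest.

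The promoters show which members carry the binding sequences of the stress pathways, and the sequences come from RefSeq, build GRCm38.p6. A window of 250 bases before and 50 after the annotated start was at hand for 60 of the 74 members, 77 windows in all since some genes have more than 1 start. The heat shock element, the site of *Hsf1*, is made of GAA units in alternating direction, and 3 such units were searched as GAANNTTCNNGAA and TTCNNGAANNTTC, which covers both strands. This element was in 6 of the 77 member windows (7.79%), against 0.603% of all 32851 windows. The 4 genes with it were *Hsph1*, *Hspd1*, *Hspe1* and *Dnajb6*. The shorter 2-unit forms GAANNTTC and TTCNNGAA, which lie within every 3-unit match, were in 23.4% of member windows and in 15.1% of all windows. The ER stress element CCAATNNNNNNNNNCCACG, on either strand, was in 3 of the 77 member windows (3.90%) and in 0.119% of all windows, and the genes were *Hspa5*, *Hsp90b1* and *Dnajc3*. A match is a match of letters and says nothing of binding in these mice.

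The stretches below hold these elements in capitals, 5′ to 3′ on the strand of the gene. The first 4 are the 3-unit heat shock elements, and the *Hspd1* and *Hspe1* lines are the same bases read on opposite strands, since these genes of the mitochondrial chaperonin start back to back.
Hsph1, chr5:149636287-149636308, minus strand: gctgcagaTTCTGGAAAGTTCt
Hspd1, chr1:55088053-55088082, minus strand: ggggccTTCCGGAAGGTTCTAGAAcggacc
Hspe1, chr1:55088053-55088082, plus strand: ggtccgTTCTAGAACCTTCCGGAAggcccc
Dnajb6, chr5:29735844-29735873, plus strand: agctccgaGAATCTTCCGGAAcgctagacc

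The 2-unit form is shown for the strongly varying Hsp70 pair and small Hsp. The stretches of *Hspa1a* and *Hspa1b* were the same in all 30 bases.
Hspa1a, chr17:34972242-34972271, minus strand: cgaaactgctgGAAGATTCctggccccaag
Hspa1b, chr17:34959324-34959353, minus strand: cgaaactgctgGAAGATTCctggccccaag
Hspb1, chr5:135887811-135887840, plus strand: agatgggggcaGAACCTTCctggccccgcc

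The ER stress elements of the ER chaperones are shown next. *Hsp90b1* had 2 matches, and the second lay on the opposite strand.
Hspa5, chr2:34772020-34772049, plus strand: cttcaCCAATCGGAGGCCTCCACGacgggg
Hsp90b1, chr10:86705632-86705661, minus strand: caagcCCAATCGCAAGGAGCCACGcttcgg
Hsp90b1, chr10:86705527-86705556, minus strand: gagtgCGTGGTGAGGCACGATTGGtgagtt
Dnajc3, chr14:118937822-118937851, plus strand: cacaaCCAATCAGCGCCAACCACGacccgg

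The window of *Hspa2*, the member that was called, held none of the 3 forms, and neither did that of *Hspa4l*. The part of the *Hspa2* window that lies before the start of the gene in Gencode M21 is shown for this reason.
Hspa2, chr12:76404120-76404175, plus strand: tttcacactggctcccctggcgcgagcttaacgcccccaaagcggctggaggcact

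Taken as a share of each library, the 74 members held 0.943% to 1.06% of all counts. The KO mice had 1.03%, 1.04%, 1.05%, 1.00% and 0.943%, and the WT mice 1.01%, 1.05%, 1.06%, 1.04% and 1.02%, in the order of their numbers. The genotypes overlapped, and KO mouse 5 was the lowest of the 10 mice.

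*Set* per kilobase of exon so that genes can be compared, the level was highest in WT for *Hsp90ab1* at 475 CPM per kb, followed by *Hspa8* at 362 ± 9.24 CPM per kb (SD, n = 5) and *Hsp90aa1* at 271 ± 6.60 CPM per kb. These are the cytosolic Hsp90s and the constitutive Hsp70. After them came the ER chaperones *Hsp90b1* at 94.6 ± 5.21 CPM per kb and *Hspa5* at 85.4 ± 9.22 CPM per kb, whose ranges over mice overlapped. The vesicle-uncoating auxilin *Dnajc6* at 72.7 ± 3.05 CPM per kb, *Dnaja2* at 69.8 ± 3.66 CPM per kb and the synaptic vesicle protein *Dnajc5* at 67.1 CPM per kb followed, with differences in the range of their SDs. *Hspa2* was the 35th member in this order. The heat-inducible *Hspa1a* and *Hspa1b* were low, at 2.04 and 2.65 CPM per kb. The exon length joins all exons of a gene, so a gene with a long rarely used exon appears lower than it is, and uniquely mapped reads undercount genes with near-identical copies. The share of 101-base exon windows that also occur in another gene was 37.8% for *Hsp90aa1*, 28.4% for *Hspa8*, 56.3% for *Hspa1a*, 49.7% for *Hspa1b*, 43.9% for *Hspb1*, 70.8% for *Hspa1l*, 41.5% for *Dnaja4* and 23.6% for *Hspd1*. It was above 10% for 15 of the 74 members, and their levels and differences are less certain. The share also counts exons that overlap another gene at the same place, as for *Dnaja4* and *Wdr61*, where reads can still map uniquely. It is taken over single windows, while the reads were pairs, so it does not measure the size of the uncertainty.

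**Figure D1:**
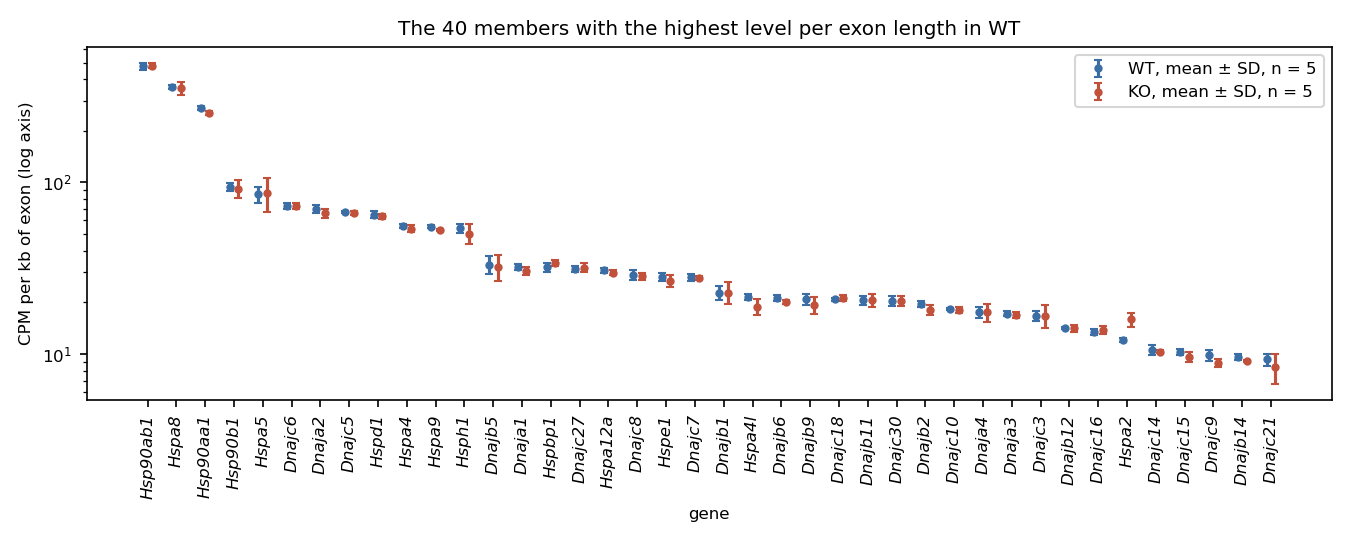
Level in CPM per kb of exon (log axis) of the 40 members with the highest WT level, as the mean and SD of 5 WT (blue) and 5 KO (red) mice. Hsp90ab1, Hspa8 and Hsp90aa1 stand above the rest, and Hspa2 is at 15.9 CPM per kb in KO and 12.1 in WT.

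Of the remaining 7 members, which were not tested, Dnajb8, Dnajc5g and Hspb9 had no count in any mouse. A count of 3 in a library corresponds to 0.0586 to 0.0993 CPM, the limit that a count of 0 allows for counting error only. Dnajb7, Dnajc5b and Dnajc22 had a single-digit number of counts over all 10 mice, and Dnajb13 had 76 counts. Dnajb13, an axonemal DnaJ of motile cilia and sperm, had 0.252 ± 0.0756 CPM in KO and 0.140 ± 0.133 CPM in WT (SD, n = 5).

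The mutated gene was checked first. *Zbtb16* was at 48.4, 51.2, 41.7, 52.5 and 42.6 CPM in the KO mice and at 83.7, 89.1, 73.6, 70.5 and 78.6 CPM in the WT mice, with no overlap. Its log2 fold change was −0.67 with a standard error (SE) of 0.058 (adjusted p = 2.8e-05, edgeR quasi-likelihood test with 3 surrogate variables, Benjamini-Hochberg over 14344 genes). Then, 2 libraries stood apart. KO mouse 3 had 1 count over 4 Y-linked genes where the other mice, all labelled male, had 4376 to 8182, and KO mouse 5 had the lowest levels of many members. Some of the results are also given without either or both of these mice. RNA integrity (RIN) was 9.5, 9.7, 8.3, 9.7 and 8.1 in KO and 9.8, 9.7, 8.2, 8.2 and 9.5 in WT.

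Over all genes, 121 of 14344 (0.844%) passed an adjusted p of 0.05 with 3 surrogate variables, and 1 of the 67 tested members (1.49%) did. Of all genes 0.6% were called higher and 0.244% lower, and the member was called higher. DESeq2 called 1.62% of all genes and also 1 member, *Hspa2*. Before adjustment, 5 of the 67 members (7.46%) were under 0.05, against 10.6% of all genes. Those 5 were *Hspa2*, which was higher, against 5.51% of all genes, and *Hspa4l*, *Dnajc2*, *Dnajc4* and *Hsp90aa1*, with values below 0, against 5.1% of all genes. The median log2 fold change was −0.0099 over the members and −0.0044 over all genes. A fitted value above 0 was found for 28 of the 67 members (41.8%) and for 48.1% of all genes. Without surrogate variables these shares were 34.3% and 48.8%, and 9 members (13.4%) were under 0.05 before adjustment, against 8.02% of all genes. Of these, 8 had values below 0, against 3.83% of all genes. After adjustment 0.209% of all genes passed there, and of the members again *Hspa2*.

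**Figure D2:**
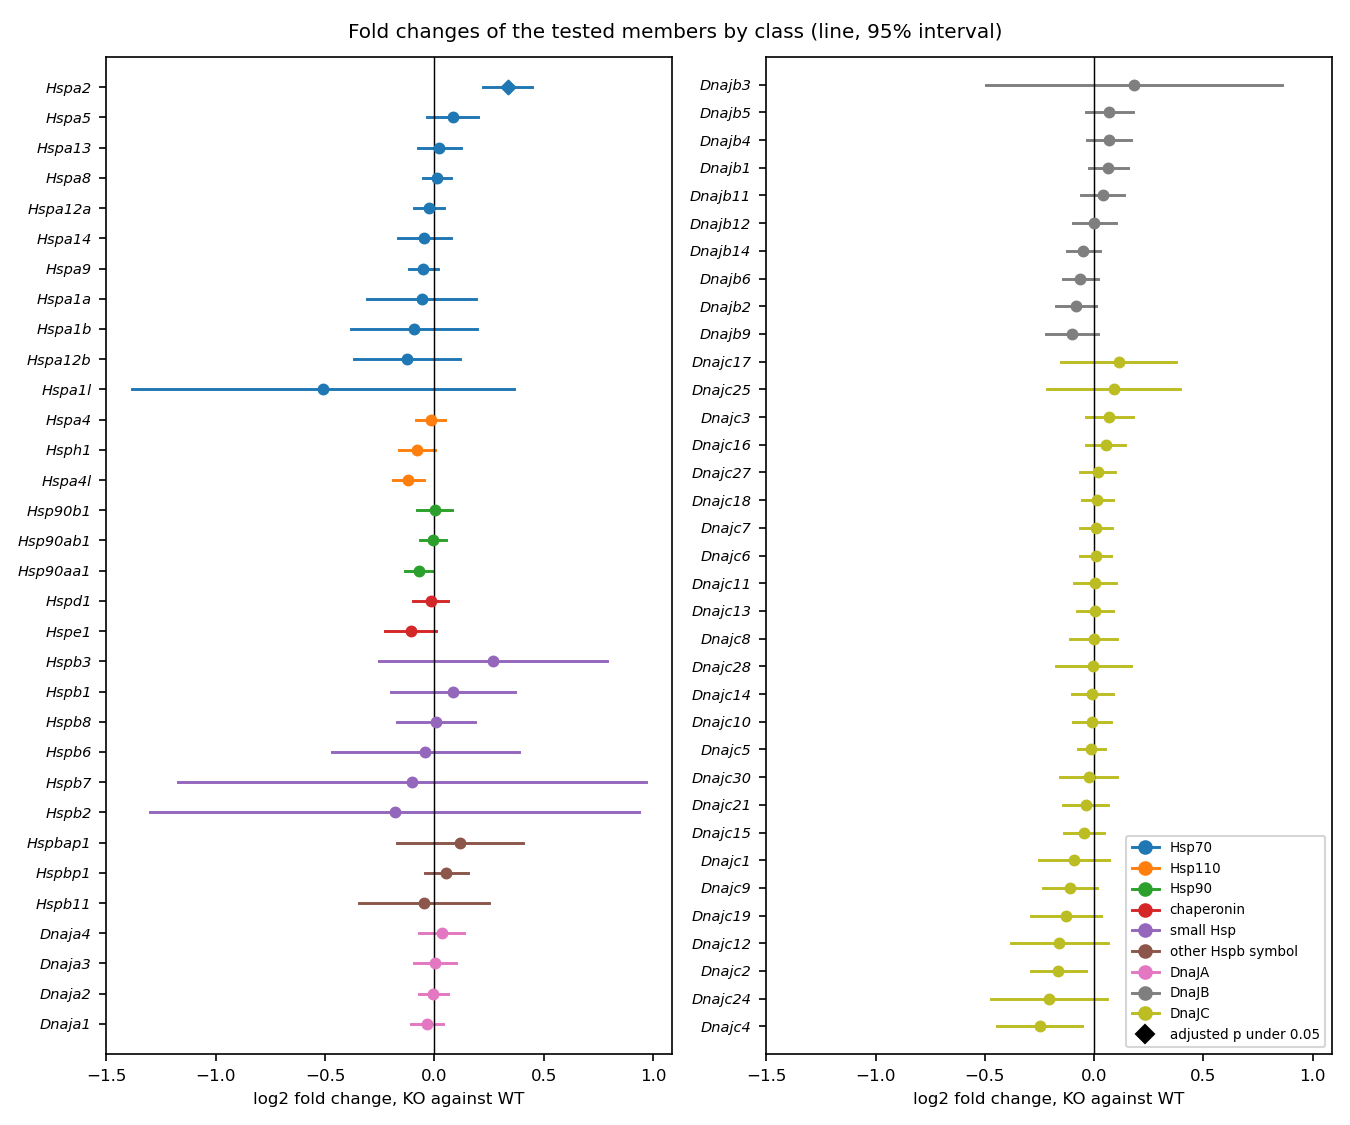
Log2 fold change of KO against WT for the 67 tested members, coloured by class, with 95% intervals from the edgeR fit. The Hspa2 diamond, at 0.34, is the value with an adjusted p under 0.05, and the intervals of the scarce Hspb2, Hspb7 and Hspa1l are the widest.

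*Hspa2* encodes a constitutively made Hsp70 best known from male germ cells, where it is needed in meiosis. The gene (ENSMUSG00000059970.7) lies on chromosome 12 at 76404176-76406938 on the plus strand of GRCm38, in 2 exon blocks. *Hspa2* was at 40.02, 47.8, 38.4, 38.9 and 44.7 CPM in the KO mice and at 30.9, 31.9, 31.7, 32.6 and 33.4 CPM in the WT mice. Every KO mouse was above every WT mouse, KO mouse 2 and KO mouse 5 were the highest, and the WT mice lay close together. The means were 42.0 ± 4.08 CPM in KO and 32.1 ± 0.954 CPM in WT (SD, n = 5). The log2 fold change was 0.34 ± 0.053 (SE), a fold of 1.26 with a 95% interval of 1.17 to 1.36 (edgeR adjusted p = 0.00508). The exact two-sided permutation test on CPM gave p = 0.00794, the smallest that 5 mice against 5 allow. Every gene without overlap gets this p, so it adds nothing to the lack of overlap.

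The reads of *Hspa2* could be told from those of other genes, since none of its 101-base windows occurred elsewhere and its exons overlapped no other protein-coding gene. The gene drew 13727 counts over the 10 mice. Left out in turn, no mouse ended the call, with log2 fold changes of 0.32 to 0.38. Without KO mouse 3 and KO mouse 5 together the value was 0.36 (edgeR adjusted p = 0.00839). The edgeR fit without surrogate variables gave 0.39 (adjusted p = 0.0124). The call ended in limma on log2(CPM + 1), at 0.31 (adjusted p = 0.0967), and in the 3 KO and 3 WT mice with a RIN of 9.5 or above, at 0.41 (edgeR adjusted p = 0.138).

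No marker of another cell type was called between the genotypes. At an unadjusted p under 0.05, where 5.51% of all genes were higher in KO and 5.1% lower, 4 of 7 tested striatal neuron markers and 4 of 9 early activity genes such as *Fos* and *Arc* were higher. The summed level of the striatal list was 230.3 to 354 CPM in KO and 186.2 to 424.5 CPM in WT, with no marker at 0, and that of the activity genes 865 to 1384 CPM in KO and 522.7 to 1121 CPM in WT. With the mean level of the striatal list in place of the surrogate variables, the log2 fold change of *Hspa2* was 0.37 (edgeR adjusted p = 0.0502), and with that of the activity genes 0.40 (edgeR adjusted p = 0.159). With neither a score nor surrogate variables it was 0.39 (edgeR adjusted p = 0.0124), so the call was lost with either score. The part of striatal tissue or of activity in this difference was not tested. The genotypes overlapped in both sums, and WT mouse 5 had the highest striatal sum. In the other lists, 2 of 6 astrocyte markers, 1 of 5 oligodendrocyte precursor markers and 1 of 8 neuron markers were higher at an unadjusted p under 0.05, and 2 neuron markers, 1 microglia, 1 endothelial and 1 blood marker were lower. No marker of oligodendrocytes, mural cells, meninges, cilia or choroid plexus had such a p. The part of these other lists in the *Hspa2* result was not tested. In bulk tissue, fewer cells of a type and less RNA per cell cannot be told apart.

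The 7 tested genes within 250000 bases of *Hspa2* were *Mthfd1*, *Akap5*, *Zbtb25*, *Zbtb1*, *Ppp1r36*, *Plekhg3* and *Sptb*. None of them was called. The nearest, *Zbtb1*, lies 7226 bases away and had a log2 fold change of −0.0042 (edgeR adjusted p = 0.989). The lowest adjusted p was that of *Plekhg3* at 0.315, with a value of −0.22.

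The other cytosolic Hsp70s did not pass the test. *Hspa8*, the constitutive Hsp70 that uncoats clathrin vesicles, was at 1563, 1628, 1618, 1543 and 1302 CPM in KO and at 1490, 1594, 1575, 1568 and 1556 CPM in WT. The genotypes overlapped, and KO mouse 5 was the lowest. Its log2 fold change was 0.013, with a 95% interval of −0.050 to 0.076. Its sign turned to −0.019 without surrogate variables. The inducible *Hspa1a* was at 5.96 ± 1.93 CPM in KO and 6.06 ± 1.34 CPM in WT, and *Hspa1b* at 7.36 ± 3.72 and 7.42 ± 1.87 CPM (SD, n = 5). Each has long stretches shared with the other, and reads that fit both were removed as multi-mapped, so both can be undercounted. *Hspa1l*, the Hsp70 of germ cells beside them on chromosome 17, had the largest value of the class, a log2 fold change of −0.51, but at 0.450 ± 0.228 CPM in KO and 0.672 ± 0.165 CPM in WT its 95% interval ran from −1.38 to 0.37.

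*Hspa4l* encodes an Hsp110 related to the exchange factors *Hspa4* and *Hsph1* and is induced by heat and by osmotic stress. The gene (ENSMUSG00000025757.12) lies on chromosome 3 at 40744495-40796103 on the plus strand. *Hspa4l* was at 233.6, 239.1, 233.0, 230.7 and 179.4 CPM in KO and at 241.1, 271.0, 249.9, 253.4 and 250.4 CPM in WT. No KO mouse reached the lowest WT mouse, but the gap between KO mouse 2 and WT mouse 1 was small and KO mouse 5 lay far below the rest. The means were 223.1 ± 24.7 CPM in KO and 253.1 ± 10.97 CPM in WT (SD, n = 5). The exact two-sided permutation test gave p = 0.00794, as it does for every gene without overlap. The fitted log2 fold change was −0.12 ± 0.033 (SE), a fold of 0.921 with a 95% interval of 0.878 to 0.967 (edgeR adjusted p = 0.135). Without KO mouse 5 it was −0.099 (edgeR adjusted p = 0.309), and without KO mouse 2 it was −0.15 (edgeR adjusted p = 0.0174), the only one of the 10 such fits with a call. Groups without overlap in CPM were found for 2 of the 67 members, *Hspa2* and *Hspa4l*, and for 1.63% of all genes. KO was above WT in this way for 0.802% of all genes and below it for 0.83%.

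**Figure D3:**
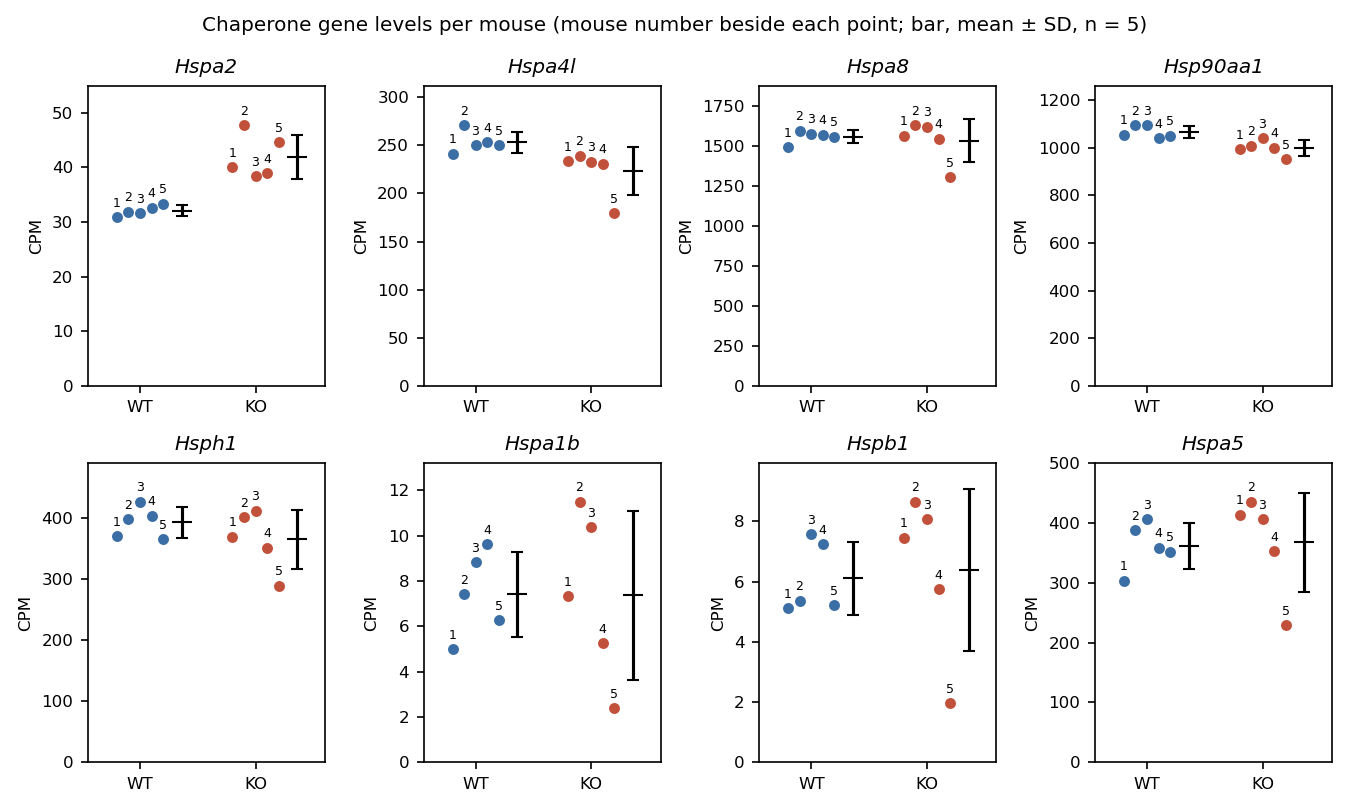
CPM per mouse of 8 members in 5 WT (blue) and 5 KO (red) mice, with the mouse number above each point and the mean ± SD beside it; each axis starts at 0. Hspa2 and Hspa4l have no overlap between the genotypes, and KO mouse 5 is the lowest point for Hspa4l, Hspa8, Hsp90aa1, Hsph1, Hspa1b, Hspb1 and Hspa5.

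The other Hsp110s were close between the genotypes. *Hsph1* was at 369.4, 401.1, 411.8, 351.4 and 289.1 CPM in KO and at 370.4, 397.5, 426.5, 403.7 and 364.7 CPM in WT, with a log2 fold change of −0.079 (edgeR adjusted p = 0.492). The ranges overlapped. *Hsph1* was called only when KO mouse 2 was left out, at −0.13 (edgeR adjusted p = 0.0314). *Hspa4* had a log2 fold change of −0.017, with a 95% interval of −0.084 to 0.049.

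*Hsp90aa1*, the stress-inducible cytosolic Hsp90, was at 993.7, 1007, 1040, 999.8 and 950.1 CPM in KO and at 1054, 1093, 1094, 1039 and 1049 CPM in WT. Only KO mouse 3 reached above the lowest WT mouse. Its log2 fold change was −0.071 ± 0.030 (SE), and it did not pass the correction (edgeR adjusted p = 0.388). *Hsp90ab1*, the constitutive form, was at 1440 ± 50.8 CPM in KO and 1424 ± 62.8 CPM in WT (SD, n = 5). Its log2 fold change was −0.0063, with a 95% interval of −0.064 to 0.052, and turned to 0.022 without surrogate variables.

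The ER chaperones had fitted values on both sides of 0 and none was called among 8. *Hspa5* (BiP), the Hsp70 of the ER, was at 413.2, 435.0, 405.7, 352.1 and 229.2 CPM in KO and at 303.2, 387.4, 405.2, 358.2 and 351.6 CPM in WT. KO mouse 5 was the lowest and KO mouse 2 the highest of all 10, so the KO spread contained the WT spread. The log2 fold change was 0.083, with a 95% interval of −0.035 to 0.20. *Hsp90b1* (GRP94), with the 2 ER stress elements shown above, had a value of 0.0024 and turned to −0.034 without surrogate variables. The BiP partners *Dnajb9* and *Dnajb11* had values of −0.10 and 0.040. *Dnajc3*, which also restrains the stress kinases of translation, had 0.070, and the disulfide reductase *Dnajc10* had −0.0099.

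In mitochondria, 8 members were tested and none was called. The chaperonin genes *Hspd1* (Hsp60) and *Hspe1* (Hsp10), which share the promoter shown above, had log2 fold changes of −0.017 and −0.11 (edgeR adjusted p = 0.929 and 0.517). *Hspd1* was at 167.7 ± 5.55 CPM in KO and 171.1 ± 8.06 CPM in WT, and *Hspe1* at 39.2 ± 3.19 and 41.6 ± 2.37 CPM (SD, n = 5). The mitochondrial Hsp70 gene *Hspa9* had −0.050 with a 95% interval of −0.12 to 0.017.

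The small Hsps were scarce. *Hspb8*, which works with *Bag3* in autophagy of clients, had the highest CPM of the class at 12.4 ± 2.19 CPM in KO and 12.2 ± 0.392 CPM in WT (SD, n = 5). *Hspb1* (Hsp25) was at 7.46, 8.66, 8.07, 5.75 and 1.97 CPM in KO and at 5.13, 5.37, 7.59, 7.24 and 5.23 CPM in WT. KO mouse 5 was far below every other mouse, and the rest of the KO mice lay within or above the WT range. *Hspb3*, a muscle small Hsp, had the largest fold among small Hsps, a log2 value of 0.27 with a 95% interval of −0.25 to 0.79. *Hspbp1*, an Hsp70 exchange factor, *Hspbap1* and *Hspb11* carry the letters Hspb without being small Hsps, and none of the 3 was called.

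No DnaJ gene was called among the 39 tested. *Dnaja1*, the type A DnaJ with the highest CPM, was at 263.6 ± 14.4 CPM in KO and 277.6 ± 11.7 CPM in WT (SD, n = 5), and *Dnaja4* had the largest value of its type at 0.034. For *Dnaja4*, 44.1% of its exon bases overlap those of *Wdr61* on the opposite strand, and whether the counting used strand is not given in the sources used here. Among type B genes, *Dnajb5* had the highest CPM at 191.5 ± 32.9 CPM in KO and 197.0 ± 23.6 CPM in WT, and had a log2 fold change of 0.070 that turned to −0.035 without surrogate variables. *Dnajb3*, at 0.892 ± 0.217 CPM in KO and 0.730 ± 0.138 CPM in WT, had the largest value at 0.18.

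Among type C genes, *Dnajc5*, the cysteine string protein of synaptic vesicles, was at 461.8 ± 14.8 CPM in KO and 466.9 ± 8.12 CPM in WT (SD, n = 5). Its log2 fold change was −0.012, with a 95% interval of −0.076 to 0.051. *Dnajc4* had the largest value of type C. It was at 7.88, 7.62, 7.92, 7.92 and 9.12 CPM in KO and at 9.27, 10.03, 8.96, 9.98 and 9.59 CPM in WT. KO mouse 5 alone reached into the WT range. The log2 fold change was −0.25 ± 0.092 (SE) and did not pass the correction (edgeR adjusted p = 0.309). *Dnajc2*, a ribosome-bound DnaJ, had a log2 fold change of −0.16 (edgeR adjusted p = 0.306).

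For 47 of the 66 members that were not called, the 95% interval lay within a fold of 1.2 in either direction. The other 19 averaged at most 28.8 CPM, so the data bound their change less closely. All 5 KO mice were below the WT mean for 13 of the 67 tested members (19.4%), against 9.61% of all genes, and all 5 were above it for 2 members, against 6.46% of all genes. This is a description of CPM with no test.

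The spread between mice differed widely among members. Over the 10 mice, the coefficient of variation had a median of 7.99% over the tested members and 8.78% over all genes. It was highest for *Hspb2*, followed by *Hspb7* at 48.2% and *Hspa1l* at 39.4%, all 3 under 1 CPM, where counting error adds to it. Next came the heat-induced *Hspa1b* at 37.6%, *Hspb1* at 31.6% and *Hspa1a* at 26.0%. The abundant members of the heat-induced list were lower, with 3.81% for *Hsp90ab1*, 3.99% for *Hspd1*, 4.37% for *Hsp90aa1*, 5.33% for *Dnaja1* and 6.06% for *Hspa8*. *Hspa4l* at 10.1% and *Hsph1* at 10.4%, also abundant, were above the median of the members. Without KO mouse 5, *Hspa1b* was at 28.7%, *Hspb1* at 20.2%, *Hspa1a* at 21% and the ER chaperone *Hspa5* at 10.8%, which had been 16.8% with it. *Hspa1b* was at 7.33, 11.50, 10.4, 5.25 and 2.38 CPM in KO and at 5.00, 7.41, 8.82, 9.62 and 6.26 CPM in WT. The KO mice spanned a wider range than the WT mice, from the highest to the lowest of all 10. In KO mouse 5, CPM was under 0.8 of the median of the other KO mice for 13 of the 67 members (19.4%), against 8.16% of all genes. The lowest ratios were 0.254 for *Hspb1*, 0.269 for *Hspa1b*, 0.476 for *Hspa1a* and 0.560 for *Hspa5*. KO mouse 5 also had the lowest RIN and the highest summed level of blood genes, 144.5 CPM against 27.97 to 59.19 CPM in WT, and the part of either in these values was not tested.

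Several members of the heat-induced list were correlated over mice with *Hsph1*, and others were not. The correlation with *Hsph1* was not computed over all genes, so whether it is particular to this list was not tested. With the genotype means taken out, *Hsph1* over the 10 mice had a Pearson's r of 0.962 with *Hspa1b* (permutation p = 8e-05, adjusted p = 0.00072) and a Spearman's rho of 0.939 (permutation p = 0.00028, adjusted p = 0.00168). With *Hspb1*, r was 0.950 (permutation p = 0.00012, adjusted p = 0.00072) and rho 0.927 (permutation p = 0.00025, adjusted p = 0.00168). Without KO mouse 3 and KO mouse 5, the mice farthest from the median of *Hsph1*, r was 0.90 and 0.878. Among the 12 relations computed, *Hspa8*, *Hspa1a*, *Dnajb1*, *Dnaja1* and *Hsp90aa1* had r of 0.920, 0.914, 0.867, 0.849 and 0.826 with *Hsph1*, and 0.739, 0.820, 0.678, 0.607 and 0.522 without those mice, so the relation of the last 3 was smaller there. Over all 10 mice their permutation p was 0.0003 to 0.00311 (adjusted p 0.00114 to 0.00533), and their rho was 0.709 to 0.879 (permutation p 0.00166 to 0.0269, adjusted p 0.00664 to 0.0403).

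For other genes of the heat-induced list, r was lower over all mice or without KO mouse 3 and KO mouse 5. *Hspa4l* had r = 0.828 with *Hsph1* (permutation p = 0.00813, adjusted p = 0.0122), rho = 0.588 (permutation p = 0.0806, adjusted p = 0.107), and r = 0.473 without KO mouse 3 and KO mouse 5. Leaving out the mice farthest from the median of *Hsph1* narrows its range. A smaller r there therefore cannot show that a relation rests on those mice. *Hsp90ab1* had r = 0.236 (permutation p = 0.529, adjusted p = 0.635) and *Hspe1* had r = −0.112 (permutation p = 0.763, adjusted p = 0.832), with rho of 0.43 (permutation p = 0.217, adjusted p = 0.26) and −0.127 (permutation p = 0.736, adjusted p = 0.803), and *Hspe1* holds the 3-unit heat shock element. *Hspd1*, on the other side of this element, had r = 0.583 (permutation p = 0.0777, adjusted p = 0.104) and rho = 0.721 (permutation p = 0.0232, adjusted p = 0.0398). Without KO mouse 3 and KO mouse 5, r was 0.606 for *Hsp90ab1*, 0.485 for *Hspe1* and 0.654 for *Hspd1*. RIN had r = 0.0154 with *Hsph1* (permutation p = 0.969, adjusted p = 0.969), rho = −0.0305 (permutation p = 0.94, adjusted p = 0.94), and r = −0.422 without those mice. The points share each library's total count.

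**Figure D4:**
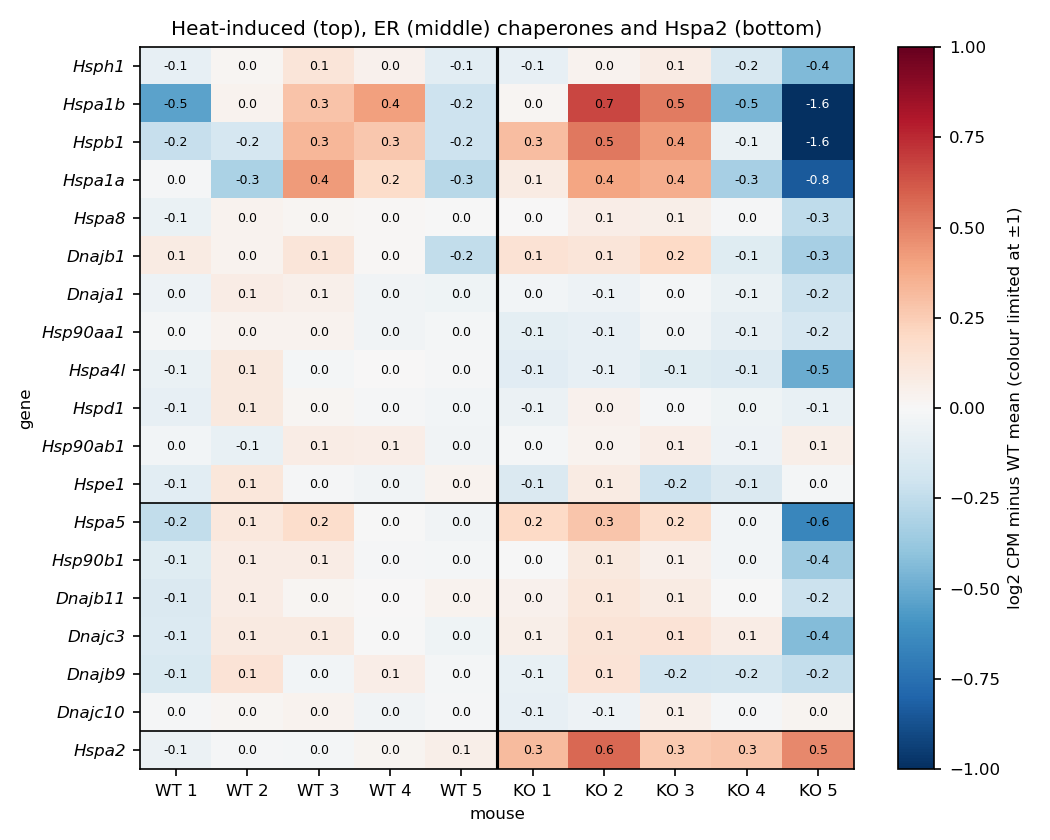
Log2 CPM minus the WT mean for the 12 genes of the heat-induced list (top), 6 ER chaperones (middle) and Hspa2 (bottom) in each of 10 mice, with colour limited at ±1. KO mouse 5 is low for Hspa1b, Hspb1, Hspa1a and Hspa5, while Hspa2 is above the WT mean in all 5 KO mice.

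The list of 12 heat-induced genes, all of them members, also holds *Hspa8* and *Hsp90ab1*, named above as constitutive. It had 0 genes called. Of the 12, 2 had an unadjusted p under 0.05 and values below 0 (*Hspa4l* and *Hsp90aa1*), against 5.1% of all genes. Fitted values were below 0 for 9 of 12, and for 7446 of all 14344 genes. DESeq2 and the edgeR fit without surrogate variables also called 0 of the 12. The median was −0.046, against −0.0044 over all genes. *Hsf1*, the factor through which heat switches on some chaperone genes, was at 32.9, 34.6, 31.9, 30.6 and 29.5 CPM in KO. In WT it was at 32.9, 32.3, 37.8, 36.1 and 32.2 CPM. *Hsf1* did not pass, with a log2 fold change of −0.11 (edgeR adjusted p = 0.478).

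Partners of the chaperones were read from lists of the pathway. Of 23 genes induced by ER stress, 0 were called by edgeR with surrogate variables. At an unadjusted p under 0.05, 3 were higher and 1 lower, against 5.51% and 5.1% of all genes. *Herpud1*, a gene of ER-associated degradation, was called by DESeq2 and by edgeR with no filter, without KO mouse 2 and without KO mouse 5. *Herpud1* was at 76.3 ± 9.77 CPM in KO and 71.9 ± 2.79 CPM in WT (SD, n = 5), with a log2 fold change of 0.18 (edgeR adjusted p = 0.0541). Of 16 Hsp70 exchange factors and partners, 0 were called, also by DESeq2. Before adjustment 1 was higher, the exchange factor *Bag2*, against 5.51% of all genes. *Bag2* had a log2 fold change of 0.32 (edgeR adjusted p = 0.207). Of 13 tested genes of the cytosolic chaperonin CCT and prefoldin, 11 of mitochondrial protein quality control and 5 of the Hsf family, none was called by edgeR or DESeq2. None of these had an unadjusted p under 0.05, against 10.6% of all genes.

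Of 22 Hsp90 co-chaperones, 1 was called, against 0.844% of all genes. It was *Fkbp5*, which binds Hsp90 on the glucocorticoid receptor and is induced by glucocorticoids. *Fkbp5* was at 78.9, 63.3, 64.6, 92.7 and 50.9 CPM in KO and at 54.0, 64.3, 44.5, 46.1 and 72.5 CPM in WT. The genotypes overlapped widely, and the exact two-sided permutation test on CPM gave p = 0.175. The log2 fold change was 0.51 ± 0.062 (SE) with 3 surrogate variables (edgeR adjusted p = 0.00063), and 0.32 without them (edgeR adjusted p = 0.627). *Fkbp5* was also called with 4 surrogate variables, with RLE, without the filter, by DESeq2 and with each mouse left out. It was not called with 1, 2 or no surrogate variables, with RIN, the replicate block or a marker score in their place, in the mice with a RIN of 9.5 or above, or by limma.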

How the data were processed

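RNA of the PFC of 5 *Zbtb16* KO and 5 WT mice was sequenced by the authors as 101-base read pairs from TruSeq Stranded mRNA libraries. The deposited values are raw counts per gene, made by the authors with STAR 2.7.1a on mm10 and HTSeq 0.9.1 on Gencode M21 protein-coding genes, with multi-mapped reads removed; no strand setting is given in the sources used here. Members were chosen by symbol, and members and lists were chosen with earlier results of these data known. Genes were filtered with filterByExpr and scaled by TMM, then tested with edgeR 4.0.16 (quasi-likelihood; genotype and 3 surrogate variables from sva 3.50.0), adjusting by Benjamini-Hochberg over 14344 genes at 0.05. Single levels were compared by exact two-sided permutation. Members are named with values when called, without overlap, *Hspa4l*, induced by heat or ER stress, or of the highest CPM or largest change in a class; *Hspa4*, *Hspa9*, *Dnajc2*, *Hspb2*, *Hspb7*, *Bag2*, *Herpud1*, the neighbours of *Hspa2* and the genes given only by a level or count were chosen after their values were seen. Alternatives were other numbers of surrogate variables, RIN or replicate block, DESeq2 1.42.0, limma 3.58.1, RLE, no filter and leaving out mice. Code was tested on simulated data. Libraries held 30220122 to 51231439 counts. Nothing says that replicates came from separate litters, so p-values speak of these mice only. Those of fits with surrogate variables measure the spread left after these variables, which were taken from the same libraries. The exact permutation test uses the CPM of these mice without such variables.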

Additional observations from a re-analysis of the deposited data

Results flagged for a closer look

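Within a genotype, a mouse was singled out when its gap to the nearest of the other 4, divided by the range of the group, passed Dixon's 95% limit for 5 samples, 0.71. Chance flags about 1 in 20 groups, and both genotypes of the 67 tested members and of *Fkbp5*, *Hsf1* and *Zbtb16* were read. Several of the flags below can therefore be due to chance, and no share over all genes is given for them. KO mouse 5 was the lowest for 4 members. *Hspa4l* was at 179.4 CPM there, against 230.7 to 239.1 CPM in the other KO mice. *Hspa8* was at 1302 CPM, against 1543 to 1628 CPM. *Dnaja1* was at 238.6 CPM, against 264.9 to 273.9 CPM. *Dnajc3* was at 63.03 CPM, against 88.59 to 93.89 CPM. KO mouse 5 was the highest for *Dnajc4* at 9.115 CPM, against 7.616 to 7.917 CPM, and for *Dnajc11* at 69.41 CPM, against 61.55 to 63.08 CPM. In WT, *Dnajc11* was lowest in mouse 4 at 58.78 CPM, against 64.66 to 65.71 CPM. WT mouse 2 was the highest for *Dnaja2* at 226.8 CPM, against 201.0 to 205.2 CPM, and for *Dnajc19* at 22.03 CPM, against 17.02 to 18.15 CPM. WT mouse 3 was the highest for *Dnajb12* at 49.25 CPM, against 47.16 to 47.67 CPM.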

How the results depend on the processing

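With the replicate block in place of the surrogate variables, 1 member was called, *Hspa2* at 0.39. Same-numbered mice had correlations of deviations of 0.171, −0.00217, 0.116, −0.107 and 0.0963. Differently numbered mice were not compared, so these values cannot tell whether the numbers pair the mice. The number of members called was 1 in the report, 0 with limma, 0 in the mice with a RIN of 9.5 or above and 0 with either marker score (the RIN subset, both scores and the fit without KO mice 3 and 5 were chosen after seeing the data), and 1 to 3 with a mouse left out, 3 without KO mouse 2. The number of pathway genes called was 1 in the report, 2 with DESeq2 and with no filter, 0 without surrogate variables, with 1 or 2 of them, with RIN, the replicate block, limma, either marker score or the RIN subset, and 1 to 2 with a mouse left out, 2 without KO mouse 2 or KO mouse 5. Where it was 2, the added gene was *Herpud1*. For this count, all settings but no surrogate variables, DESeq2 and leaving out mice were chosen after seeing the data. The median log2 fold change of the members was −0.032 to 0.0014 with a mouse left out. The causes were not tested.

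Of the uncalled members, signs turned as follows. Without surrogate variables the values were −0.019 for *Hspa8*, 0.022 for *Hsp90ab1*, −0.034 for *Hsp90b1* and −0.035 for *Dnajb5*. With 1 surrogate variable they were 0.10 for *Hspa1a*, 0.17 for *Hspa1b* and 0.016 for *Hsp90ab1*, and with 2 they were 0.12, 0.15 and 0.019. With 4 they were −0.014 for *Hspa8*, −0.020 for *Hspb1*, −0.029 for *Hsp90b1* and −0.0078 for *Dnaja4*. With RIN they were −0.019 for *Hspa8*, 0.021 for *Hsp90ab1*, −0.036 for *Hsp90b1* and −0.033 for *Dnajb5*. With the replicate block they were −0.023 for *Hspa8*, −0.041 for *Hspb1*, 0.022 for *Hsp90ab1*, −0.041 for *Hsp90b1*, −0.0011 for *Dnajc3*, −0.0012 for *Dnaja4* and −0.043 for *Dnajb5*. With limma, *Hsp90b1* had −0.0080 and *Hspb8* −0.0050, and with no filter *Hsp90ab1* had 0.0017. Without KO mice 3 and 5, *Hspa1a* had 0.0040. In the mice with a RIN of 9.5 or above the values were 0.29 for *Hspa1a*, 0.37 for *Hspa1b*, 0.046 for *Hsp90ab1*, −0.013 for *Dnajb5* and 0.024 for *Hsf1*. With the striatal score they were 0.14 for *Hspa1a*, 0.16 for *Hspa1b* and 0.039 for *Hsp90ab1*. With the activity gene score they were −0.013 for *Hspa8*, −0.026 for *Dnajb1*, −0.011 for *Hsp90b1* and −0.081 for *Dnajb5*.

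With a mouse left out, values ran from −0.022 to 0.072 for *Dnaja4*, −0.034 to 0.093 for *Dnajb1*, −0.036 to 0.29 for *Dnajb3*, −0.030 to 0.17 for *Dnajb5*, −0.033 to 0.019 for *Dnajc10*, −0.048 to 0.0061 for *Hsp90ab1*, −0.045 to 0.051 for *Hsp90b1*, −0.36 to 0.0054 for *Hspa1b*, −0.0035 to 0.18 for *Hspa5*, −0.019 to 0.031 for *Hspa8*, −0.11 to 0.17 for *Hspb1*, −0.060 to 0.10 for *Hspb8* and −0.036 to 0.0027 for *Hspd1*. Depth limits the members under about 1 CPM.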
